A study of Mus musculus with 38 samples.

Results

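Cytosolic ribosomal protein genes encode the proteins that join ribosomal RNA to form the large (Rpl and Rplp genes) and small (Rps genes and Rpsa) subunits of the ribosome. The members described here were all genes with at least 1 probe set annotated to a single symbol of that kind. Membership was set by name and not by any measured value, although this kind of gene was chosen with earlier results of these data known. There were 49 such genes of 18193 genes on the array, read by 105 probe sets. Of these, 47 genes and 98 probe sets passed the filter on low signal.

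RNA from whole bone marrow of 38 C57BL/6 mice was hybridised to Affymetrix mouse arrays, with 1 array per mouse. In 34 mice a leukaemia had been started by giving lethally irradiated syngeneic recipients, male or female, c-kit+ marrow progenitors that carried a retrovirus with an MLL fusion oncogene, a histone methyltransferase fragment joined to a partner protein. The MLL-AF1p cohort had 9 mice, the MLL-AF10 cohort 8, the MLL-GAS7 and MLL-AF9 cohorts 5 each and the MLL-ENL cohort 7, and marrow was taken when the mice were euthanised. The controls were wild-type C57BL/6 marrows from 4 mice, for which the labels give no irradiation, transplant or empty virus, so that the oncogene cannot be told apart from those treatments. RNA of every group came from cryopreserved cells, the labels state no ages, and nothing in the labels says whether mice of a cohort shared a donor or a virus preparation.

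A ribosome holds a single copy of nearly every one of its proteins, and the genes are transcribed strongly in all dividing cells. Their mRNAs start with a cytosine and a run of pyrimidines, the 5′ terminal oligopyrimidine (TOP) motif, through which the kinase mTOR and the RNA-binding protein Larp1 set how much of the mRNA is translated. Inherited loss of 1 copy of several of these genes, Rps19 first among them, causes Diamond-Blackfan anaemia, in which red cell precursors fail. Free Rpl5 and Rpl11 bind Mdm2 when ribosome assembly is disturbed and thereby raise Trp53. A few genes have paralogs (Rpl22l1, Rpl39l, Rpl7l1, Rps27l, Rps4l) that stand beside or replace the usual protein.

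The start sites are shown because the TOP motif is the feature these mRNAs share. RefSeq (GRCm38.p6) promoter windows matched 43 of the 49 genes, with 51 annotated starts. At 8 of the 51 starts (15.7%) the first base was a cytosine followed by at least 4 pyrimidines, against 2.51% of the 32851 promoters of all genes. A run of at least 8 pyrimidines on the sense strand lay within 40 bases of the start in 34 of 51 (66.7%), against 29.3% of all promoters. Annotated starts can be off by some bases, so a start without the motif says only that these letters are not at that position. In the windows below, 10 bases precede the start, and capitals mark the pyrimidine run that begins at the start.
Rpl35 (chr2:39005112-39005141, minus strand): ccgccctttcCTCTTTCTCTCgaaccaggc
Rps10 (chr17:27635225-27635254, minus strand): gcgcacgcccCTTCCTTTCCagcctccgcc
Rps18 (chr17:33955646-33955675, minus strand): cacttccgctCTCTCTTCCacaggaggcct
Rps6 (chr4:86857348-86857377, minus strand): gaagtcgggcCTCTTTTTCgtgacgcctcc
Rpl38 (chr11:114668570-114668599, plus strand): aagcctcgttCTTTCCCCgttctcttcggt
Rps27 (chr3:90213629-90213658, minus strand): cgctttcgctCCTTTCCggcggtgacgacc
Rpl14 (chr9:120571507-120571536, plus strand): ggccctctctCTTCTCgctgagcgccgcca
Rplp2 (chr7:141447641-141447670, plus strand): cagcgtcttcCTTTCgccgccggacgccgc

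The promoter windows held 250 bases before and 50 bases after the start. In them the letters CCGGAAG, the core bound by ETS factors, occurred on either strand in 21 of 51 (41.2%), against 8.86% of all promoters. The GC box GGGCGG, searched on both strands, was found in 52.9% against 35.7%, and the E-box CACGTG, which reads the same on both strands, in 9.8% against 7.15%. A match describes letters and not a bound site. The 120 bases before the start are shown for Rpl37 and Rps25. Of the 6 largest rises described below, only these had the ETS core within that stretch of a matched promoter. They were thus chosen by the letters and do not stand for the other rises. Capitals mark the ETS core.
Rpl37 (chr15:5116493-5116612, plus strand): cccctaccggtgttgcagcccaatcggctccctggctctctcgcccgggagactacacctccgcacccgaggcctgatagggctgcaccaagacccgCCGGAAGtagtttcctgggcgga
Rps25 (chr9:44407594-44407713, plus strand): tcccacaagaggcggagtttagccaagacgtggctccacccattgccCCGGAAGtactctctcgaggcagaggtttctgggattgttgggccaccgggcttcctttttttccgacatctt

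Values are log2(intensity + 46.1) with the array medians made equal, and a gene is read by its brightest kept probe set. A gene was called when its limma p, adjusted by Benjamini-Hochberg over all 13333 genes tested, was under 0.05. The intensities had a trimmed mean of 500 on every array, and array medians ran from 129.2 to 208.3. Ribosomal protein probe sets lay at the bright end of these arrays: 34 of the 47 members had a mean level above 14, beside 66 other genes. This is the signal of those probe sets and not a measure of mRNA amount between genes. Markers of several blood cell types differed between normal and leukaemic marrow: 9 of 10 measured erythroid markers were lower in leukaemia, and their summed intensity was 97871 to 139358 in the 4 normal mice and 676 to 2130 in the 34 leukaemias. The 11 B cell markers were all lower (15559 to 31977 against 1627 to 7493), as were 6 of 7 megakaryocyte markers (21468 to 32988 against 930 to 2513) and 7 of 8 T and NK cell markers (5039 to 6627 against 854 to 5323, which overlap). Of 9 late neutrophil markers 7 were lower (175135 to 298800 against 16214 to 347082, which overlap), whereas 3 of 5 early granulocyte markers were higher (53752 to 118933 against 59476 to 188854) and 5 of 9 monocyte and macrophage markers were higher with 4 lower (15569 to 23146 against 20780 to 62271). None of these markers was at 0 on any array. In whole marrow, fewer cells of a type and less RNA per cell cannot be told apart, and the part of these cell types in the results on ribosomal protein genes was not tested.

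The first comparison asked how ribosomal protein mRNA in leukaemic marrow differed from normal marrow, with the 5 cohorts weighted equally. With equal array medians 40 of the 47 ribosomal protein genes were called higher in leukaemia (85.1%) and 0 lower, where 29.1% of all genes were called higher, but after cyclic loess the direction was lost, as given in the next paragraph. The median change of the 47 was 0.54 on the log2 scale (1.45-fold), against 0.16 over all genes tested. Both subunits moved alike in size, with 20 of 25 large-subunit genes called higher at a median of 0.53 and 20 of 22 small-subunit genes at a median of 0.54. In 24 of the 47 genes all 34 leukaemias lay above all 4 normal mice (51.1%), against 4.85% of all genes.

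The size of this rise depended on how the arrays were made comparable. With the values as deposited, 34 members were called higher and 0 lower (all genes higher: 23.4%), at a median of 0.41. After quantile normalization 18 were called higher and 0 lower (38.3%, against 25.5% of all genes), at a median of 0.16. After cyclic loess, which removes trends of change with brightness, 8 were called higher (17%, against 17.6% of all genes) and 3 lower (6.38%, against 21.1%), and the median was -0.0038. The median of all genes was 0.16 with equal array medians, 0.04 as deposited, 0.09 after quantile normalization and -0.01 after loess. Relative to it, the members stood at 0.37 with equal array medians and as deposited, at 0.07 after quantile normalization and at 0.01 after loess. The 3 genes lower after loess were Rps3a1 (-0.23), Rps29 (-0.23) and Rps10 (-0.21), each called higher with equal array medians. Called higher under all 4 scalings were 8 members (17%), close to the 16.8% of all genes that passed the same 4 tests.

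The median difference per mouse shows the same pattern without a model. With equal array medians, the median over the 47 genes of the difference from the normal mean was -0.10 to 0.06 in the 4 normal mice and 0.22 to 0.91 in the leukaemias, with a median of 0.60. The lowest mouse of a cohort was at 0.22 (MLL-AF10) to 0.43 (MLL-ENL), so that no leukaemia overlapped the normal range. After quantile normalization the leukaemias ran from 0.02 to 0.30 against -0.07 to 0.03, with 33 of 34 above all normal mice, and after loess from -0.14 to 0.15 against -0.07 to 0.12, with 4 of 34 above them.

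**Figure D1:**
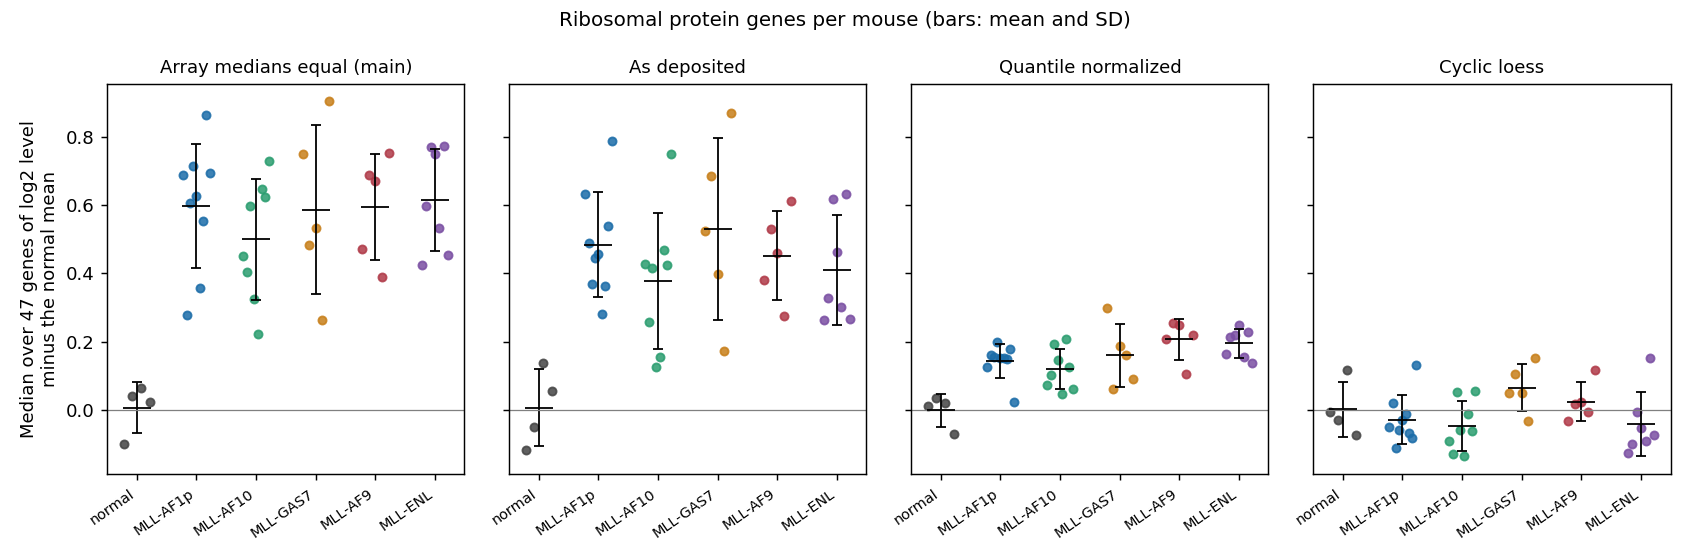
Median over 47 ribosomal protein genes of each mouse's log2 level minus the normal mean (y axis), for the 6 groups (x axis), under 4 scalings; each point is 1 mouse and bars are mean and SD. The leukaemias lie at 0.22 to 0.91 with equal array medians and overlap the normal mice after cyclic loess, where they run from -0.14 to 0.15.

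With equal array medians, other bright genes were higher in leukaemia too. Among genes that are no ribosomal protein genes, the median change was -0.01 for probe sets with a mean level below 8, 0.21 between 9 and 10, 0.38 between 11 and 12, and 0.46 for the 66 genes above 14, of which 69.7% were called higher. For the same 66 genes the median was 0.09 after quantile normalization and turned to -0.13 after loess. With equal array medians the 34 ribosomal protein genes above 14 had a median change of 0.55, with a range of 0.36 to 1.08 (1.29-fold to 2.11-fold). All 34 were then called higher. After quantile normalization their median was 0.13, near the 0.09 of the 66 other genes, and 14 of the 34 were called higher, where 25.5% of all genes were. The median SD between mice of a group was 0.14 to 0.25 for these 34 genes. Some signs of RNA and labelling differed between the groups as well, with overlap. The 18S control signal was 8.60 ± 0.97 (SD, n = 34) in leukaemia and 7.12 ± 0.46 (n = 4) in normal marrow. The 3′ to 5′ log2 ratio of actin was 0.31 ± 0.11 against 0.14 ± 0.06. Of the 34 leukaemias, 27 lay above all normal mice for 18S and 25 for actin. The Gapdh ratio was -0.27 ± 0.11 against -0.25 ± 0.10, and the hybridisation control signal 11.71 ± 0.45 against 11.53 ± 0.67. The part of these signs in the rise was not tested.

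**Figure D2:**
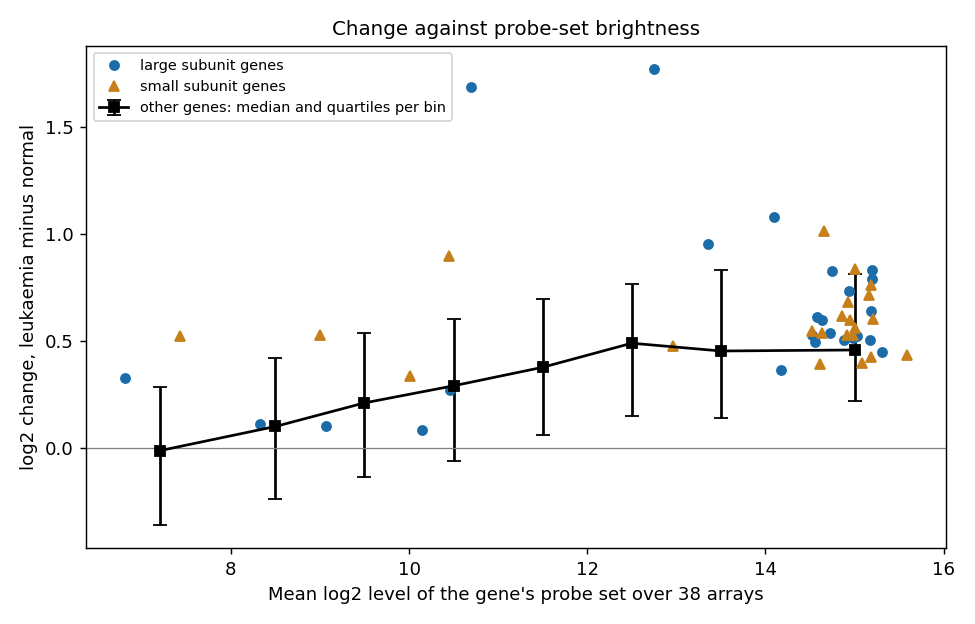
log2 change of leukaemia against normal with equal array medians (y axis) against the mean log2 level of the probe set over 38 arrays (x axis); circles and triangles are the 47 ribosomal protein genes, squares and bars the median and quartiles of all other genes per brightness bin. The median of other genes runs from -0.01 in the dimmest bin to 0.46 in the brightest, where the ribosomal protein genes have a median of 0.55.

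The 38 arrays also fell into 2 sets by the signal of 6 probe sets that are no members. This division was found in these data, is not named in the labels and is of unknown origin. The first set held 16 leukaemias and no normal mouse, and the second 18 leukaemias and all 4 normal mice. Within the second set 39 members were called higher and 0 lower (83.0%, against 30.2% of all genes) at a median of 0.54, and with the set as a term 40 and 0. The per-mouse median was 0.28 to 0.77 in the first set of leukaemias and 0.22 to 0.91 in the second.

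The 6 largest rises were those of Rpl37, Rpl27a, Rpl11, Rps19, Rpl22l1 and Rps25, and all 6 were called higher under all 4 scalings. Rpl37, a zinc-binding protein of the large subunit, was at 11.13, 11.23, 11.41 and 10.89 in normal mice 1 to 4, and at 12.20 to 13.44 with a median of 12.90 in the leukaemias. All 34 leukaemias lay above all 4 normal mice, and the rise was 1.77 ± 0.14 (SE), 3.41-fold, with limma adjusted p = 1.04e-12. It was 1.59 after quantile normalization and 1.31 after loess. Rpl37 is read by 1 kept probe set, 1438291_x_at, of a kind that may share signal with related transcripts.

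Rpl27a, also of the large subunit, was at 9.23, 10.03, 9.01 and 8.46 in normal mice 1 to 4 and at 10.10 to 11.84, median 10.86, in the leukaemias. The groups did not overlap, although normal mouse 2 lay within 0.1 of the lowest leukaemia, MLL-ENL_701. The rise was 1.69 ± 0.19, 3.22-fold (limma adjusted p = 5.67e-09), and 1.38 after loess.

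Rpl11, which binds Mdm2 when ribosome assembly is disturbed, was at 12.96, 13.19, 13.16 and 13.23 in normal mice 1 to 4 and at 13.83 to 14.66, median 14.24, in leukaemia. Every leukaemia was higher than every normal mouse, and the rise was 1.08 ± 0.11, 2.11-fold (limma adjusted p = 5.61e-10), with 0.52 after loess. Rps19, the gene most often mutated in Diamond-Blackfan anaemia, was at 13.84, 13.68, 13.79 and 13.69 in normal mice and at 14.14 to 15.22, median 14.79, in leukaemia. The groups were again apart, and the rise was 1.01 ± 0.14, 2.02-fold (limma adjusted p = 4.3e-07), with 0.41 after loess.

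Rpl22l1, the paralog of Rpl22, was at 12.58, 12.91, 12.40 and 12.17 in normal mice 1 to 4 and at 12.67 to 13.99, median 13.46, in leukaemia. Normal mouse 2 overlapped the lowest leukaemias, 31 of 34 leukaemias lay above all normal mice, and the rise was 0.95 ± 0.17, 1.93-fold (limma adjusted p = 2.46e-05). Rps25, a small-subunit protein needed for initiation at some viral and cellular internal ribosome entry sites, was at 9.58, 9.73, 9.48 and 9.69 in normal mice and at 9.82 to 11.16, median 10.54, in leukaemia. All 34 leukaemias were above all normal mice, with a rise of 0.90 ± 0.14, 1.86-fold (limma adjusted p = 1.76e-06). The other 2 genes called under all 4 scalings were Rpl10a (0.83 ± 0.12, 1.78-fold, and 0.22 after loess) and Rpsa, the laminin-receptor-like protein at the small subunit's mRNA exit (0.84 ± 0.12, 1.78-fold, and 0.21 after loess). Both lay above all normal mice in 34 of 34 leukaemias.

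**Figure D3:**
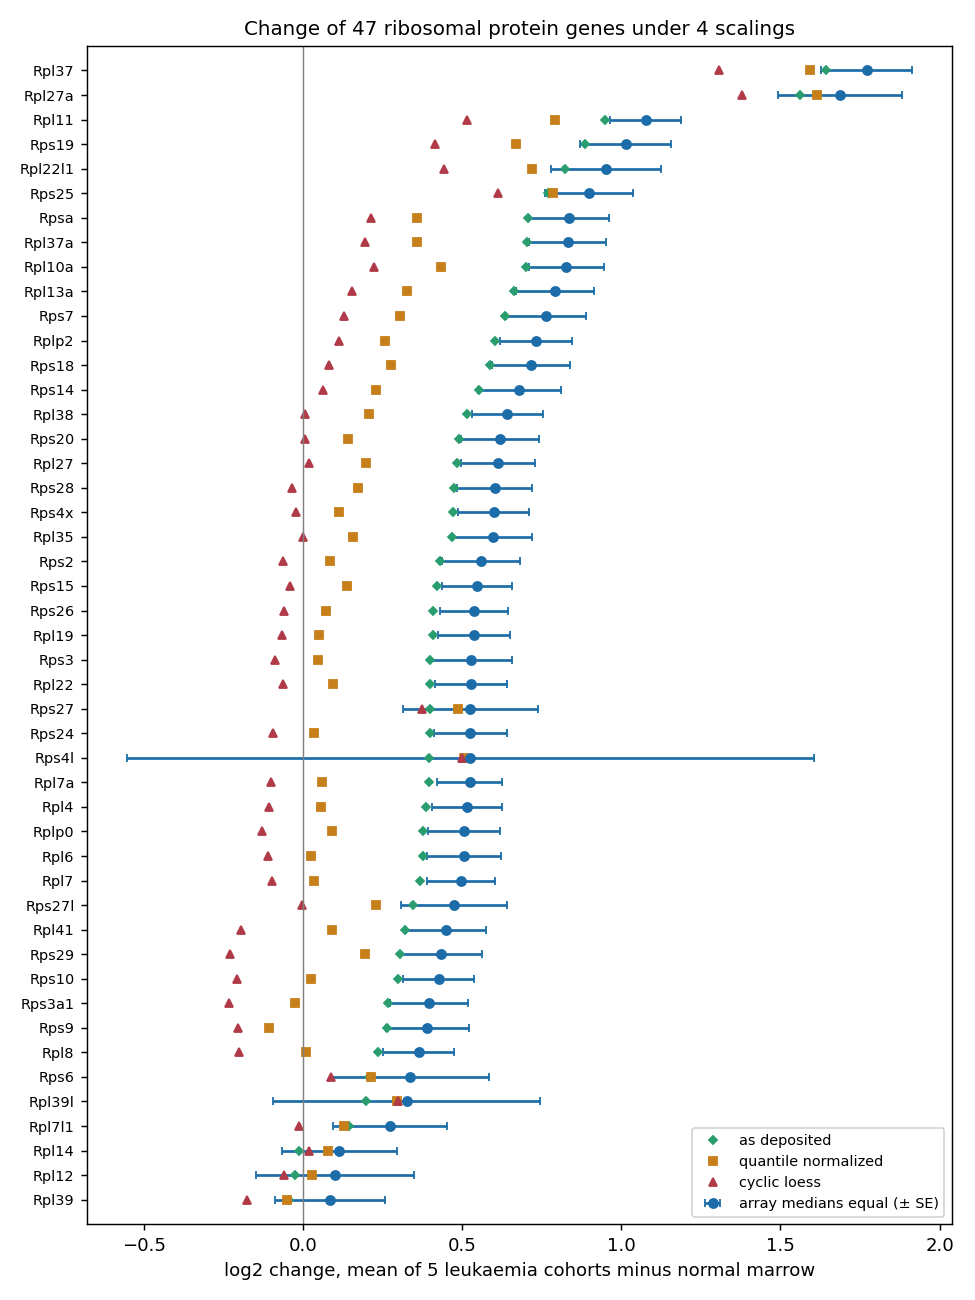
log2 change of each of the 47 ribosomal protein genes (y axis, ordered by change) between the mean of the 5 leukaemia cohorts and normal marrow (x axis); circles with bars are the change with equal array medians ± SE, and the other symbols the same change under 3 other scalings. Rpl37 and Rpl27a stay at 1.31 or higher under all 4 scalings, whereas most other genes move toward 0 after quantile normalization and loess.

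Both measured stalk genes and 5 genes with a link to inherited or acquired anaemia, chosen for detail and not all such genes, were called higher with equal array medians. In the stalk, the acidic protein complex that recruits translation factors to the large subunit, Rplp2 rose by 0.73 ± 0.11 (1.66-fold, limma adjusted p = 1.77e-06) and Rplp0 by 0.51 ± 0.11 (1.42-fold, limma adjusted p = 0.000389), each with 34 of 34 leukaemias above all normal mice. After quantile normalization Rplp2 (0.26) was still called and Rplp0 (0.09) was not. After loess these changes were 0.11 and -0.13, neither called. Rplp1 has no probe set with a single symbol, as is the case for Rpl3, Rpl5, Rpl10, Rpl26 and Rpl35a, while Rpl10l was not analysed here. In all, 110 further probe sets name a ribosomal protein gene beside another symbol and were not used. The 5 anaemia-linked genes Rps7 (0.76 ± 0.13), Rps14 (0.68 ± 0.13), Rps26 (0.54 ± 0.11), Rps24 (0.53 ± 0.12) and Rps10 (0.43 ± 0.11) were called higher, at 1.70-fold to 1.34-fold. After quantile normalization only Rps7 (0.31) and Rps14 (0.23) of these 5 were still called, and after loess Rps10 was called lower.

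The paralogs did not move as a group. Rps27l, a target of Trp53 that resembles Rps27, rose by 0.48 ± 0.17 (1.39-fold, limma adjusted p = 0.0203), and Rps27 rose by 0.53 ± 0.21 (1.44-fold, limma adjusted p = 0.0446). Neither was called after quantile normalization or loess, and both lost the call when single mice were left out, at a highest adjusted p of 0.0749 for Rps27l (without normal mouse 3) and 0.173 for Rps27 (without normal mouse 1). Rpl7, at 0.50 ± 0.11, and Rps4x, at 0.60 ± 0.11, were called higher. Rpl7l1, a paralog of Rpl7, was at 0.27 ± 0.18 (limma adjusted p = 0.226) by its brightest probe set, 1452049_at. Its probe set 1426386_at, of like brightness, rose by 0.57 ± 0.16 (adjusted p = 0.00404 over probe sets) and was not called after loess (0.29). Rpl39 was at 0.09 ± 0.17 (adjusted p = 0.729). Rpl39l, the testis-enriched paralog of Rpl39, was at 0.33 ± 0.42 (adjusted p = 0.57) and Rps4l, a paralog of Rps4x, at 0.53 ± 1.08 (adjusted p = 0.733). Rpl3l, the muscle-type paralog of Rpl3, did not pass the filter and lay between 5.93 and 7.48 on all 38 arrays.

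The 7 members that were not called were Rpl12, Rpl14, Rpl39, Rpl39l, Rpl7l1, Rps4l and Rps6, at changes of 0.09 to 0.53. All 7 have probe sets with a mean level under 11, where 3 other members, Rpl27a, Rps25 and Rps27, were called, and the 34 above 14 were all called. For Rpl12 (0.10 ± 0.25), Rpl14 (0.11 ± 0.18) and Rps6, the mTOR-pathway phosphoprotein of the small subunit (0.34 ± 0.25), only 1 kept probe set carries the single symbol. Rps16, the other gene removed by the filter, lay between 5.50 and 6.63 on all arrays.

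The 8 genes with a TOP letter run at the annotated start did not stand apart in this description. The 8 had a median change of 0.56, from 0.11 to 0.73, with 6 called higher, and the 33 other matched members a median of 0.54, from 0.09 to 1.77, with 29 called higher.

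Among the 98 kept probe sets of the members, 74 were called higher (75.5%, against 24.9% of all probe sets kept) and 0 lower. Of the 20 genes with several kept probe sets, 8 had all of them called higher and 12 had some that were not called. The widest disagreements were in Rps10, Rps9, Rpl22 and Rps24, where probe sets of a gene differed by more than 1 in log2 change. Rpl22, an RNA-binding protein of the large subunit known to repress Rpl22l1, is read by 3 probe sets. The brightest, 1453118_s_at, rose by 0.53 ± 0.12 (limma adjusted p = 0.000388 over probe sets), and 1448398_s_at by 0.65 ± 0.20. The probe set 1416603_at was at 12.18, 12.67, 12.47 and 12.27 in normal mice 1 to 4 and at 13.44 to 14.61, median 14.16, in leukaemia. It rose by 1.74 ± 0.16 (3.34-fold, limma adjusted p = 2.3e-11), with all 34 leukaemias above all normal mice, and by 1.5 after quantile normalization and 1.19 after loess. The lowest mouse of a cohort was at 13.44 in MLL-AF10 and at 13.99 in MLL-ENL, with the other 3 cohorts between, so that the rise was present under all 5 fusions. This probe set thus differs from the gene-level value of Rpl22, which was not called after either of those scalings.

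In 2 genes a large value came with normal mice that stood far apart. The Rps10 probe set 1439374_x_at rose by 1.93 ± 0.42 (limma adjusted p = 0.000384), with normal mice 1 and 3 at 10.39 and 11 and normal mice 2 and 4 at 13.09 and 12.82. It stayed called without normal mouse 1 (1.45 ± 0.46, adjusted p = 0.0143) and without normal mouse 3 (1.66 ± 0.48, adjusted p = 0.00735). The Rps9 probe set 1434624_x_at rose by 1.49 ± 0.36 (adjusted p = 0.00131), with normal mouse 1 at 9.17 and the other normal mice at 13.07 to 13.64. This rise rested on normal mouse 1, without which the difference was 0.42 ± 0.20 (adjusted p = 0.106). The probe sets that stand for these genes were at 0.43 (Rps10) and 0.39 (Rps9), the latter losing its call without normal mouse 1 (adjusted p = 0.0599) or 4 (adjusted p = 0.0528). Rps29 lost its call without normal mouse 1 (adjusted p = 0.0901).

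The second comparison set each cohort against the same 4 normal mice, so the 5 results share their controls. MLL-ENL marrow had 41 of 47 members called higher (all genes 30.3%), at a median of 0.62 against 0.23 over all genes. MLL-AF1p had 38 (all genes 24.2%), at a median of 0.60 against 0.14. MLL-AF10 had 37 (all genes 24.8%), at 0.48 against 0.15, and MLL-GAS7 also 37 (all genes 16.7%), at 0.56 against 0.11. MLL-AF9 had 36 (all genes 23.7%), at 0.55 against 0.19, and no cohort had a member called lower. After quantile normalization 21 members were called higher for MLL-ENL (all genes 23.4%), 16 for MLL-AF9 (20.1%), 14 for MLL-GAS7 (18%), 15 for MLL-AF10 (22%) and 15 for MLL-AF1p (22.4%). There 0 members were called lower, where the shares of all genes were 15.1%, 13.3%, 12.8%, 15.5% and 15.8% in that order. After loess 6 members were called higher for MLL-ENL (all genes 16.1%), 7 for MLL-AF9 (13.5%), 8 for MLL-GAS7 (12.2%), 6 for MLL-AF10 (15.4%) and 5 for MLL-AF1p (15.6%), which are shares near those of all genes. Called lower after loess were 4 for MLL-ENL (all genes 19.1%), 0 for MLL-AF9 (16%), 0 for MLL-GAS7 (15.6%), 4 for MLL-AF10 (19.5%) and 2 for MLL-AF1p (19.5%).

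The same names led in most cohorts, since Rpl37, Rpl27a, Rpl11 and Rps19 were among the 6 largest called rises in each. In MLL-AF9 the uncalled Rps4l (1.65, adjusted p = 0.379) was larger than all but Rpl37. Rpl37 was higher than normal by 1.95 ± 0.17 in the MLL-ENL mice and by 1.71 ± 0.17 (MLL-AF10) to 1.76 ± 0.18 (MLL-GAS7) under the other 4 fusions. Rps25 was among the 6 in MLL-AF1p (1.06), MLL-AF10 (1.0) and MLL-ENL (0.96), and Rpl22l1 in MLL-AF10 (0.89), MLL-GAS7 (0.89), MLL-AF9 (1.03) and MLL-ENL (1.11). Rpl37a (0.87 in MLL-AF1p), Rpl13a (0.85 in MLL-GAS7) and Rpl39l (1.62 in MLL-AF9) completed the lists. Altogether 34 members were called higher in all 5 cohorts, against 12.3% of all genes, in comparisons that share their controls, and 5 (Rpl12, Rpl14, Rpl39, Rps4l and Rps6) in none.

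**Figure D4:**
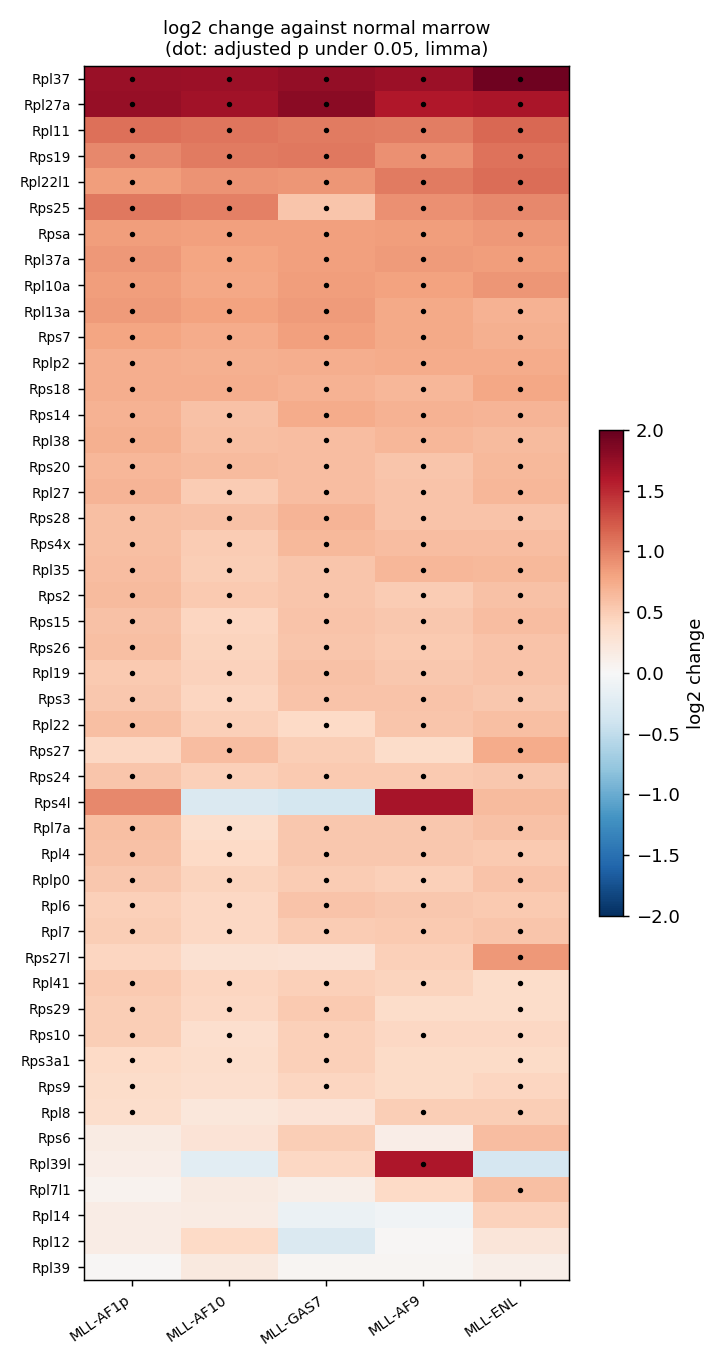
log2 change of the 47 ribosomal protein genes (rows, ordered by the change over all cohorts) in each of the 5 leukaemia cohorts against the same 4 normal mice (columns); colour gives the change and a dot marks an adjusted p under 0.05. Dots fill all 5 columns for 34 genes, and Rpl12, Rpl14, Rpl39l and Rps4l change sign between cohorts.

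The third comparison asked whether the fusions differed from each other, and among these members few differences were called. The F test over the 5 cohorts called Rpl39l alone (limma adjusted p = 0.0265), 2.13% of the members against 8.09% of all genes. Rpl39l passed the filter in part through the MLL-AF9 mice, as described below, so this call rested in part on the values compared. In the F test 5 members had an unadjusted p under 0.05. Unadjusted counts are given here without the share of all genes and are not read as a difference. Against the other 4 cohorts, 0 members were called in MLL-AF1p (2.33% of all genes in either direction) and 0 in MLL-AF10 (0.308%), with 0 and 2 at an unadjusted p under 0.05. The comparisons called 1 member in MLL-GAS7 (4.78% of all genes), 1 in MLL-AF9 (0.368%) and 1 in MLL-ENL (4.97%), and within the second array set they called none of the 3.

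In MLL-GAS7 the called gene was Rps25, which fell by 0.42 ± 0.13 against the other 4 cohorts (limma adjusted p = 0.0425). The 5 mice were at 10.45, 9.93, 10.35, 10.35 and 9.82, against means of 10.54 (MLL-AF9) to 10.68 (MLL-AF1p) under the other 4 fusions and 9.62 in normal marrow. The MLL-GAS7 values overlapped those of every other leukaemia cohort. The call was lost under the 3 other scalings and in 10 of the 38 fits that left out 1 mouse, with the highest adjusted p, 0.213, without MLL-GAS7_410. That mouse and MLL-GAS7_407, the lowest of the cohort, are among the 5 arrays on which the hybridisation controls were brightest, and leaving those 5 out gave a difference of -0.23 (adjusted p = 0.683).

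In MLL-AF9 the called gene was Rpl39l, higher by 1.62 ± 0.38 than the mean of the other 4 cohorts (3.07-fold, limma adjusted p = 0.0419). The 5 mice were at 7.08, 7.32, 9.12, 9.54 and 8.18, and 3 of them lay above 8. Outside MLL-AF9, MLL-AF1p_809 was at 9.52 and MLL-GAS7_407 at 8.17, while the 8 MLL-AF10 mice ran from 5.79 to 7.35, the 7 MLL-ENL mice from 5.82 to 6.72 and the 4 normal mice from 6.00 to 7.21. The lowest MLL-AF9 mouse was thus above all MLL-ENL mice, and the MLL-AF9 range overlapped those of MLL-AF1p, MLL-AF10, MLL-GAS7 and normal marrow. The call was lost in 21 of the 38 fits that left out 1 mouse, with adjusted p = 0.248 without MLL-AF9_305, 0.24 without MLL-AF9_301 and 0.127 without MLL-AF9_310, and 0.05 to 0.0597 in the other 18. With a pseudocount of 1 the adjusted p was 0.112. The filter asked for at least 4 arrays above the array's median, and 3 of the 5 leukaemias with Rpl39l above 8 were MLL-AF9. Entry of this gene to the test thus rested in part on the values compared, and the call was lost without the filter.

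In MLL-ENL the called gene was Rps27l, higher by 0.50 ± 0.13 than in the other 4 cohorts (1.41-fold, limma adjusted p = 0.0254). The 7 mice ran from 13.13 to 13.65 with a median of 13.38, and the means of the other cohorts were 12.82 (MLL-GAS7) to 13 (MLL-AF9). All 7 MLL-ENL mice lay above all 4 normal mice (12.40 to 12.75) and above all 8 MLL-AF10 mice (12.54 to 13.11), and overlapped the other 3 cohorts. The call was lost without MLL-ENL_741 (adjusted p = 0.0838), without MLL-ENL_742 (adjusted p = 0.0566) and when those 5 arrays were left out (adjusted p = 0.0511).

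Rps4l varied more between mice of a group than any other member, with a median SD of 1.87 within groups, against 0.74 for Rpl39l, the next highest. In MLL-AF1p, MLL-AF1p_810, MLL-AF1p_811, MLL-AF1p_808 and MLL-AF1p_809 were at 10.97, 10.29, 11.07 and 11.13 and the other 5 at 5.36 to 5.80. In MLL-AF10, MLL-AF10_782A and MLL-AF10_798A were at 9.87 and 9.16 and the other 6 at 5.56 to 6.01. In MLL-GAS7, MLL-GAS7_410 was at 9.86 and the other 4 at 5.66 to 6.09. In MLL-AF9, MLL-AF9_308, MLL-AF9_301 and MLL-AF9_305 were at 9.53, 10.41 and 9.97, MLL-AF9_310 at 7.31 and MLL-AF9_307 at 5.89. In MLL-ENL, MLL-ENL_760, MLL-ENL_702 and MLL-ENL_774 were at 10.82, 8.82 and 10.74 and the other 4 at 5.68 to 5.78. The normal mice 1 to 4 were at 5.59, 8.59, 6.76 and 6.96. A high and a low level thus occurred in every leukaemia cohort, with 13 of 34 leukaemias above 8, and no difference between groups was called.

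**Figure D5:**
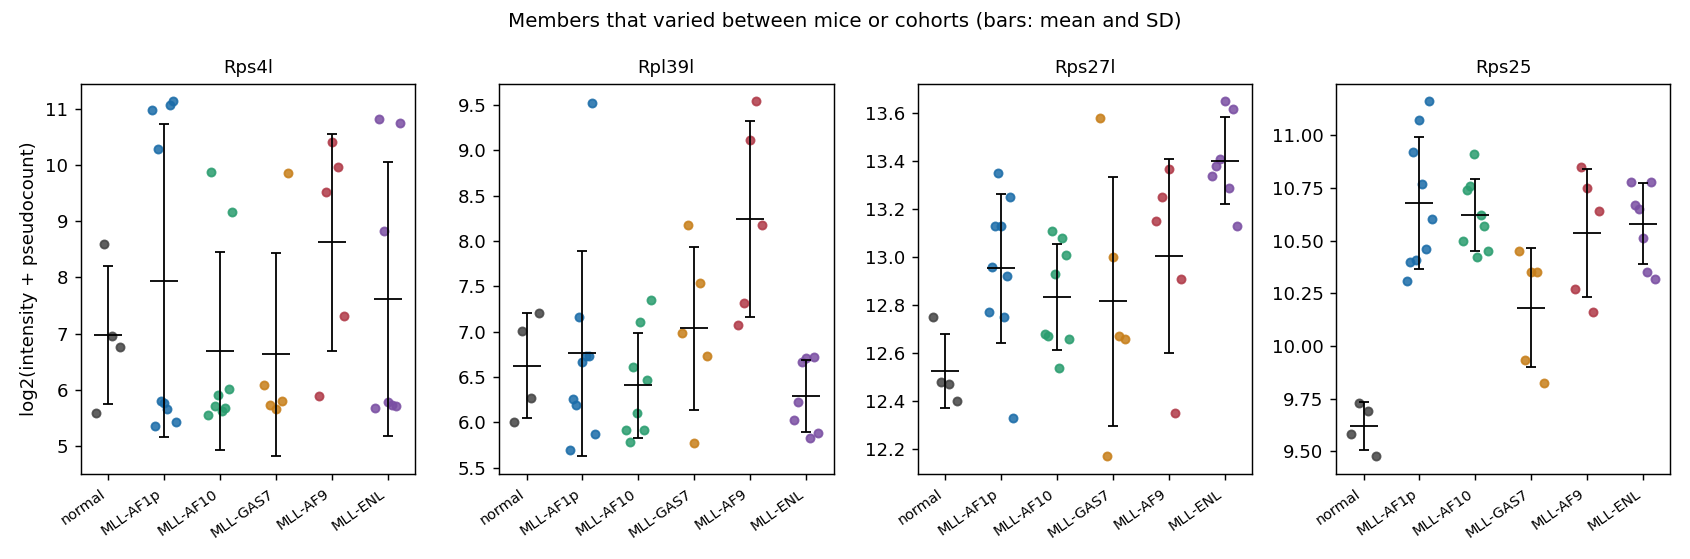
log2(intensity + 46.1) of Rps4l, Rpl39l, Rps27l and Rps25 (y axis, a separate range per panel) in each mouse of the 6 groups (x axis); bars are mean and SD. Rps4l splits into high and low mice in every leukaemia cohort, Rpl39l is above 8 in 5 leukaemias, Rps27l is highest on average in MLL-ENL, and Rps25 is lowest on average among the leukaemias in MLL-GAS7.

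Genes that act with the ribosomal proteins give the context. Their counts stand beside 29.1% of all genes called higher and 12.8% called lower with equal array medians, 25.5% and 16.7% after quantile normalization, and 17.6% and 21.1% after loess. Of 16 measured other translation genes with a known or likely TOP start, 12 were called higher and 0 lower, at a median of 0.62, which was 0.27 after quantile normalization and 0.07 after loess. Eif3e, an initiation factor subunit, rose 1.81-fold and Btf3, of the nascent-chain complex, 1.77-fold, and both stayed called after loess; of the 16, 4 were then higher and 4 lower. Of 76 mitochondrial ribosomal protein genes 44 were higher and 0 lower, at a median of 0.40, and 22 and 7 after loess, at a median of 0.13.

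Of 11 regulators of ribosomal protein translation, 3 were called higher and 0 lower, a share no larger than that of all genes called higher. The median of the 11 was 0.18 with equal array medians, 0.04 after quantile normalization and -0.17 after loess. The 3 were Larp1, the TOP-binding repressor (1.71-fold, limma adjusted p = 6.46e-06), Pdcd4, an inhibitor of the helicase Eif4a (3.13-fold, adjusted p = 4.91e-10), and Rheb, the GTPase that activates mTOR (1.47-fold, adjusted p = 0.00126). Larp1 and Pdcd4 were also called higher after loess. Rps6kb2, an S6 kinase, was at -0.80 ± 0.34 (adjusted p = 0.0563) and was called lower under the 3 other scalings, at -0.93 as deposited (adjusted p = 0.017), -0.91 after quantile normalization (adjusted p = 0.0241) and -0.94 after loess (adjusted p = 0.0141). Mtor itself was at 0.18 ± 0.18 (adjusted p = 0.457).

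Of the 8 chaperones of single ribosomal proteins, 4 were called higher and 1 lower, at a median of 0.37, and 2 and 1 after loess, at a median of 0.11. Ltv1, an assembly factor of the small subunit, rose 2.16-fold (limma adjusted p = 2.19e-07) and Tsr2, which carries Rps26, rose 1.49-fold (adjusted p = 0.000376), and both were also called after loess. Bccip, which binds Rpl23, rose 1.36-fold and Pdcd2, which binds Rps2, rose 1.44-fold; neither was called after loess. Nap1l4, a nucleosome assembly protein, fell by 0.44 ± 0.13 (adjusted p = 0.00573).

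Of the 6 snoRNA host genes, whose introns hold small RNAs that guide ribosomal RNA modification, 5 were called higher and 0 lower, at a median of 0.87, and 4 and 1 after loess, at a median of 0.48. Snhg6 rose 3.21-fold (limma adjusted p = 6.34e-10) and Gas5, a TOP transcript, 1.90-fold (adjusted p = 1.68e-05), and both stayed called after loess. Snhg12 rose 1.86-fold, Snhg5 1.81-fold and Snhg8 1.42-fold, while Snhg1 was at -0.04 ± 0.18 and was called lower after loess (-0.42).

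In the Trp53 arm of ribosome surveillance 3 of 5 measured genes were called higher and 0 lower, at a median of 0.46, and 2 were higher and 1 lower after both quantile normalization and loess. Cdkn1a, the cell cycle inhibitor induced by Trp53, rose 2.41-fold (limma adjusted p = 1.92e-06), Ccng1 1.73-fold (adjusted p = 0.00227) and Mdm4 1.37-fold (adjusted p = 0.0488), the last not called under the 3 other scalings. Mdm2, the ligase that Rpl11 binds, was at -0.21 ± 0.16 (adjusted p = 0.307) with equal array medians, but was called lower under the 3 other scalings, at -0.33 as deposited (adjusted p = 0.0399), -0.38 after quantile normalization (adjusted p = 0.0143) and -0.54 after loess (adjusted p = 0.00088). Sesn2 was at -0.04 ± 0.26. Beside these lists, 8 of 11 mitosis genes were called lower and 0 higher in the leukaemic marrows, at a median of -0.70, and 11 were lower after loess.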

How the data were processed

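The deposited table holds 1 linear intensity for each of 45101 probe sets and 38 arrays, scaled by the authors to the same trimmed mean (2% at each end); the program that summarised the probe sets is not stated in the labels. Symbols come from the platform annotation, and the Entrez identifiers of all 105 member probe sets matched RefSeq, changing 0 symbols. Values were converted to log2(intensity + 46.1), the 25th percentile of all values, shifted to equal array medians, and kept where above the array's median on at least 4 arrays (29004 probe sets, 13333 genes). The brightest kept probe set stood for a gene. A model of 6 group means was fitted with limma 3.58.1 in R 4.3.3, with 32 residual degrees of freedom, moderated 2-sided tests and Benjamini-Hochberg adjustment over all genes. The labels give no slide or scan date. The number of arrays limits the precision, and p-values measure the spread between mice. No 2 columns were identical. The scripts were tested on simulated data. Members, lists and comparisons were chosen with earlier results of these data known. Any member could be named; those given in detail were the 6 largest rises and falls called in each comparison, the paralogs with their partners, the stalk, Rpsa, disease genes, and genes whose probe sets disagreed. The wide probe-set disagreements and Rps4l were singled out after their values were seen. Genes of lists with at most 10 measured members, and up to 4 called genes of longer lists, could be named. Alternatives were other scalings, pseudocounts of 1 and 200, no filter, the mean of the probe sets, no probe sets named _s_at or _x_at, array weights, array set, leaving out each array, and, added after seeing the data, leaving out the 5 arrays with the brightest hybridisation controls. The 14 members read by a probe set named _x_at, and 2 named _s_at, may share signal with related transcripts.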

Additional observations from a re-analysis of the deposited data

Results flagged for a closer look

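Differences between cohorts were called by the comparison itself for 3 members: Rps25 in MLL-GAS7 (-0.42), Rpl39l in MLL-AF9 (1.62) and Rps27l in MLL-ENL (0.50), on the log2 scale against the other 4 cohorts. Rpl39l passed the filter in part through the MLL-AF9 mice, and all 3 calls were lost in some of the other fits, as described above.

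Single mice stood apart from their group in 8 of 144 checks of a gap against the group's range, where chance flags about 1 in 20. In normal marrow these were Rps26 in mouse 3 (14.20, next 14.14), a gap of under 0.1. In MLL-AF1p they were Rpl39 in MLL-AF1p_801 (8.95, next 9.96) and Rpl39l in MLL-AF1p_809 (9.52, next 7.16). Rps4l in MLL-GAS7_410 was at 9.86, where the next mouse was at 6.09. In MLL-AF9, Rpl22 in MLL-AF9_305 was at 14.25 (next 14.61) and Rpl37 in MLL-AF9_301 at 13.20 (next 12.85). In MLL-ENL, Rpl27a in MLL-ENL_701 was at 10.10 (next 10.78) and Rpl39 in MLL-ENL_742 at 9.25 (next 10.06). The causes were not tested.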

How the results depend on the processing

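For leukaemia against normal, the count of 40 called members and their median of 0.54 changed beyond 1.5 times only with the scaling: 18 (median 0.16) after quantile normalization and 11, 8 of them higher, after cyclic loess, where the median reversed to -0.0038. Probe sets called in either direction were 33 and 20 instead of 74, without the shares of all probe sets under these scalings. The 20 after loess include probe sets called lower. These were 1426162_a_at of Rpl7 (-0.29), 1436586_x_at of Rps14 (-0.26), 1422475_a_at of Rps3a1 (-0.23) and 1438723_a_at of Rps10 (-0.21). By cohort, members called in either direction after quantile normalization and loess were 15 and 7 (MLL-AF1p), 15 and 10 (MLL-AF10), 14 and 8 (MLL-GAS7), 16 and 7 (MLL-AF9), and 21 and 10 (MLL-ENL). The loess counts of MLL-AF1p, MLL-AF10 and MLL-ENL include members called lower. Both directions and the shares of all genes are given with the second comparison. Within the second array set MLL-AF9, with 2 mice, had 20. With equal array medians, leaving out 1 mouse moved the cohort counts from 29 to 41. Against the other cohorts, the call in MLL-GAS7 went to 0 under the 3 other scalings, no filter, array weights, the second array set and without the 5 brightest-control arrays. The call in MLL-AF9 went to 0 with pseudocount 1, no filter and the second array set. The MLL-ENL count was 2 after loess and 0 in the second array set and without those 5 arrays. Leaving out 1 mouse gave 0 to 1, 0 to 1 and 0 to 3 in that order. The F test called 2 after quantile normalization, without _s_at and _x_at probe sets and with array weights, 0 with pseudocount 1 and in the second array set, and 0 to 3 when 1 mouse was left out. After loess the changes of Rpl22 (-0.062), Rpl7 (-0.10), Rplp0 (-0.13), Rps10 (-0.21), Rps24 (-0.095), Rps26 (-0.060), Rps27l (-0.0038) and Rps4x (-0.020) turned negative, as did Rps24 (-0.23) without _s_at and _x_at probe sets. The causes of these shifts were not tested, also not of those after loess normalization, which is built to remove trends with brightness. No paired analysis was possible because the groups share no replicate numbers.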
